A study of Mus musculus with 8 samples.

Results

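Primitive endoderm regulators and endocytic receptors were followed in *L3mbtl2*-KD ESCs through 10 genes, taken as the non-control probes whose RefSeq accession maps to a member's symbol. They are the transcription factors *Gata4*, *Gata6*, *Sox17*, *Sox7* and *Foxa2*, the receptor gene *Pdgfra*, and the endocytic genes *Dab2*, *Cubn*, *Amn* and *Lrp2*, out of 19751 genes named on the array. Both groups were VV3 cells, male mouse ESCs with a Vasa::Venus transgene that reports the germ cell gene *Ddx4* by fluorescence, grown on mitomycin C-treated STO fibroblast feeders in serum with LIF. Control ESCs received the non-silencing AllStars siRNA (4 arrays) and *L3mbtl2*-KD ESCs received siRNA against *L3mbtl2* (4 arrays), described as biological replicates. By the methods, the *L3mbtl2*-KD cells were sorted by FACS for the Vasa reporter. Whether control cells also went through the sorter is not stated for these arrays.

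Every sample had a one-colour Agilent array of its own, with 43020 spots besides control features. The 75th percentile of spot intensity was 854 to 1024 in control ESCs and 791 to 1038 in *L3mbtl2*-KD ESCs, and 62.0 to 66.6% and 59.5 to 63.9% of spots were well above background. No spot was saturated, and the number of arrays limits the precision. A level below is log2 of a probe's intensity minus that of the array's 75th percentile, so that 0 stands for the 75th percentile of that array. Levels of different probes are not on one scale, so the brightest gene of a list and sums over a list refer to signal and not to amounts of RNA. A gene was called when at least 1 tested probe differed more than 2-fold at an adjusted limma p under 0.05 (Benjamini-Hochberg over 23518 tested probes of 13652 genes). Replicates 1 and 2 of each group lay on slide 1 and replicates 3 and 4 on slide 2, and differences within a slide use its 2 samples of each group. Control samples took positions 1 and 3 of a slide and *L3mbtl2*-KD samples positions 2 and 4, so position and siRNA cannot be told apart.

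The siRNA target was examined first. *L3mbtl2* (NM_145993) stood at 0.27, -0.18, -0.21 and -0.31 in control replicates 1 to 4 and at -1.45, -1.26, -1.58 and -1.73 in *L3mbtl2*-KD replicates 1 to 4. Its log2 fold change was -1.40 (standard error 0.15, limma adjusted p = 9.4e-04), and 37.9% of the control intensity remained. The reporter's gene *Ddx4* (NM_010029) stood at 0.86, 0.99, 0.99 and 0.85 in control ESCs and at 3.87, 3.62, 3.70 and 3.82 in *L3mbtl2*-KD ESCs. For both genes the groups did not overlap. The *L3mbtl2*-KD cells were sorted for the Vasa reporter, which selects for *Ddx4*, so the difference in *Ddx4* is no separate check of the knockdown.

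Primitive endoderm is the extraembryonic lineage that segregates from the pluripotent epiblast in the blastocyst and later lines the yolk sac. FGF signalling and the GATA factors drive its formation, SOX17, SOX7 and FOXA2 act in its maturation, and PDGFRA marks its cells from early on. The visceral endoderm that develops from it takes up maternal proteins and vitamins by endocytosis through the giant receptors cubilin and megalin (*Lrp2*), with amnionless carrying cubilin to the membrane and DAB2 linking receptors to the clathrin coat.

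*Gata4* and *Gata6* encode zinc finger factors at the head of the programme. *Gata4* (NM_008092) stood at -1.89, -1.64, -1.91 and -1.65 in control ESCs and at -2.96, -2.32, -2.61 and -2.87 in *L3mbtl2*-KD ESCs. All *L3mbtl2*-KD samples lay below all control samples, with group means of -2.69 ± 0.29 and -1.77 ± 0.14 (SD, n = 4 each). The log2 fold change was -0.92 (standard error 0.15, 95% interval -1.26 to -0.57, limma adjusted p = 0.0052), which is 1.89-fold and short of the 2-fold threshold. Without *L3mbtl2*-KD replicate 2, the highest of its group, the value was -1.04 with an adjusted p of 0.0030 in limma, which passes both thresholds. *Gata6* (NM_010258) stood at -0.37, 0.30, -0.31 and -0.05 in control ESCs and at -0.57, 0.49, 0.09 and -0.18 in *L3mbtl2*-KD ESCs. The lowest and the highest sample were both *L3mbtl2*-KD samples. Its log2 fold change of 0.06 (standard error 0.24, 95% interval -0.48 to 0.60) was within the spread between samples (limma adjusted p = 0.88, two-sided exact permutation test p = 0.857), and over the alternative ways of processing it ranged from -0.11 to 0.24. These are bulk samples, in which fewer cells of a type and less RNA per cell cannot be told apart.

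*Sox17* and *Sox7* encode related SOX factors of the endoderm. *Sox17* (NM_011441) stood at -2.49, -2.51, -2.74 and -2.52 in control ESCs and at -4.23, -3.89, -4.66 and -5.75 in *L3mbtl2*-KD ESCs. Its control samples were tightly grouped and all lay above the *L3mbtl2*-KD samples, of which replicate 4 was not well above background. *Sox17* was down-regulated 4.19-fold (log2 fold change -2.07 with a standard error of 0.35, adjusted p = 0.0059 in limma), with -1.56 on slide 1 and -2.58 on slide 2. Normexp background correction gave a log2 fold change of -1.11, still called. This correction adds an offset, which draws low signals together, and used median spot intensities. The part of each was not tested. A second *Sox17* probe gave -2.02 (standard error 0.43, limma adjusted p = 0.015), with *L3mbtl2*-KD replicates 3 and 4 not well above background. With normexp background correction this second probe was at -0.62, under 2-fold. *Sox7* (NM_011446) stood at -2.61, -3.19, -3.35 and -3.41 in control ESCs and at -3.41, -3.51, -3.72 and -4.16 in *L3mbtl2*-KD ESCs. The highest *L3mbtl2*-KD sample reached the lowest control sample, and control replicate 1 stood above the rest. The log2 fold change of -0.56 (standard error 0.22, 95% interval -1.06 to -0.06) had an adjusted p of 0.11 in limma (two-sided exact permutation test p = 0.0571). With the replicate number as a block its adjusted p in limma was 0.013, at the same size under 2-fold.

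*Foxa2*, a forkhead factor of definitive and visceral endoderm, was the member regulator that no *L3mbtl2*-KD sample measured above background. Its brighter probe (NM_010446) stood at -4.11, -4.34, -4.52 and -3.78 in control ESCs and at -6.43, -5.57, -6.87 and -6.03 in *L3mbtl2*-KD ESCs. It was well above background on all 4 control arrays and on 0 *L3mbtl2*-KD arrays, and the groups did not overlap. For such a gene the fold is given as a bound. In each dim array the probe was set to the lowest signal that still counted as well above background there, unless its own was higher, and the mean of these was compared with the mean of the bright group. By this bound *Foxa2* was at least 2.45-fold lower in *L3mbtl2*-KD ESCs (limma adjusted p = 0.0024 for the measured levels). This bound and those of other genes below apply to the scanner's own background subtraction, not to other corrections. For *Foxa2*, normexp background correction gave a log2 fold change of -0.42 with an adjusted p of 0.052 in limma, which ends the call. The second *Foxa2* probe was not well above background on any array.

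RefSeq promoters (GRCm38.p6, 250 bases before to 50 after the start, sense strand) were found for 6 of the 10 members, 9 promoters in all, and were searched on both strands for 3 motifs. These were the E-box CACGTG, bound by MAX, the E2F motif TTCCCGCC, and AGATAA, bound by GATA factors. MAX and E2F6 are members of the Polycomb complex that holds L3MBTL2. *Gata4*, *Gata6*, *Sox17* and *Sox7* had no entry. The E2F motif occurred in 2.19% of all 32851 promoters and in 1 of the 9, a *Foxa2* promoter that holds it at 163 and 142 bases before the start. That promoter (chr2:148045899-148046198, minus strand) is shown as the member promoter with 2 matches, in capitals.
Foxa2 promoter: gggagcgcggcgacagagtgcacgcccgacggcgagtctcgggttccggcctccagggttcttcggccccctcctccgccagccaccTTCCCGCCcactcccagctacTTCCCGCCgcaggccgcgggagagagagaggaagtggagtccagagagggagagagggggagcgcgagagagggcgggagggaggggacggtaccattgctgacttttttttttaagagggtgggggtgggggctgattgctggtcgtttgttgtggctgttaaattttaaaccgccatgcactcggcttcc

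*Pdgfra* encodes a receptor tyrosine kinase for platelet-derived growth factor that is present on primitive endoderm and also on fibroblasts. *Pdgfra* (NM_011058) stood at -2.31, -2.36, -2.55 and -2.26 in control ESCs and at -3.58, -3.29, -3.96 and -4.65 in *L3mbtl2*-KD ESCs. All 4 *L3mbtl2*-KD samples lay below the controls, and the spread was wider among them (SD 0.59 against 0.13, n = 4 each). In *L3mbtl2*-KD replicate 4, the lowest, 6 of the 9 spots used for the probe were well above background. *Pdgfra* was down-regulated 2.83-fold (log2 fold change -1.50 with a standard error of 0.26, adjusted p = 0.0065 in limma), with -1.10 on slide 1 and -1.90 on slide 2. Normexp background correction gave -0.81 (limma adjusted p = 0.0024), under 2-fold.

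**Figure D1:**
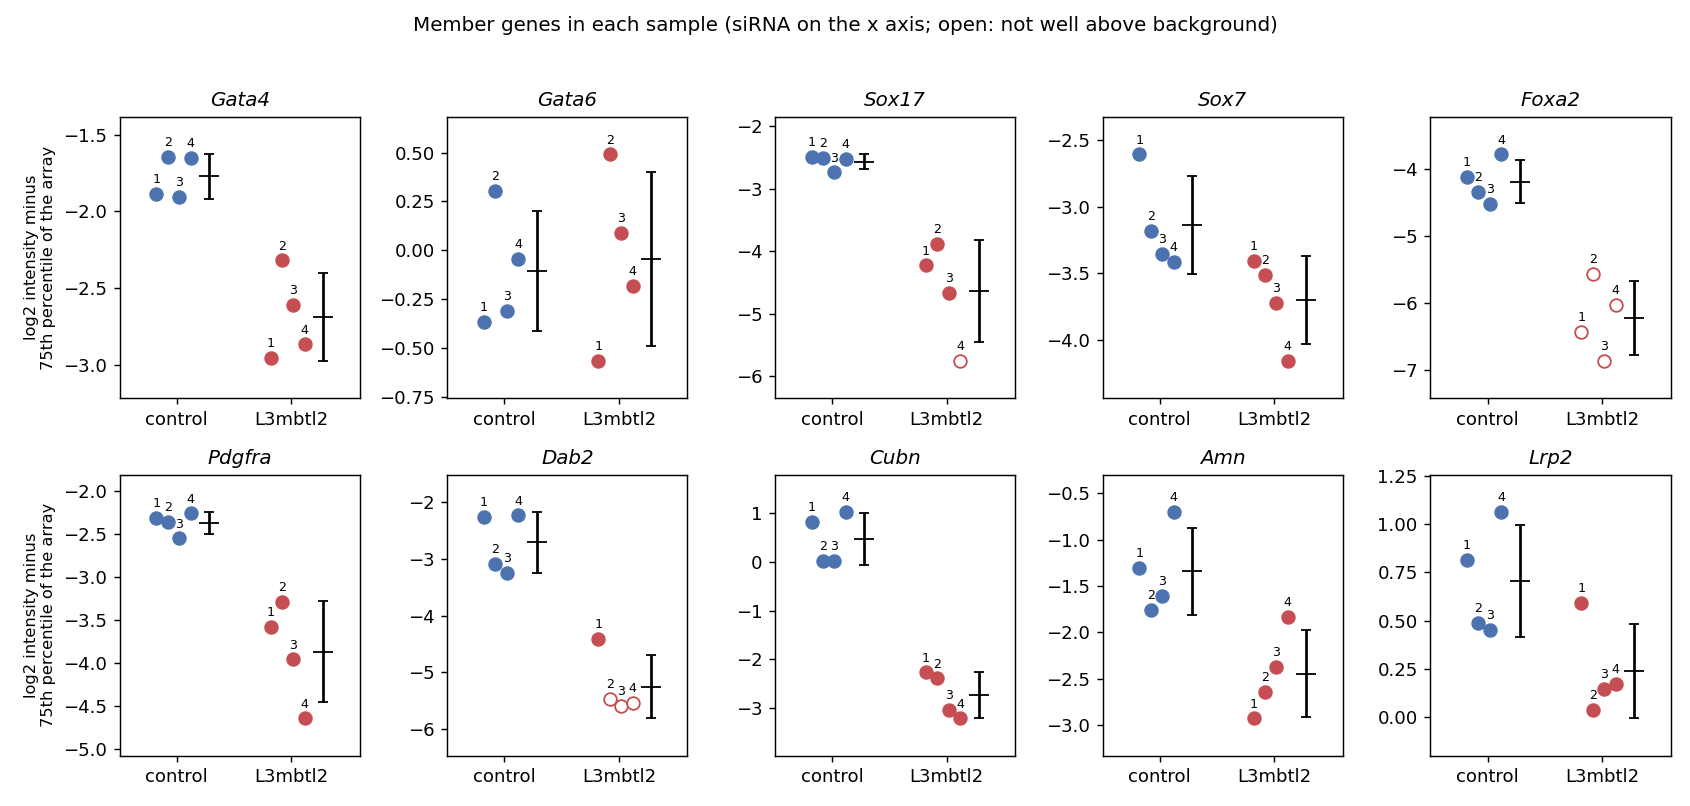
Level of each member gene in each sample (log2 intensity minus the 75th percentile of the array, replicate numbers beside the points, open points not well above background), with the mean and SD of each group of 4 beside the points. *Cubn* lay at 0.02 to 1.03 in control ESCs and at -3.21 to -2.27 in *L3mbtl2*-KD ESCs, while the groups overlapped for *Gata6*, *Sox7* and *Lrp2*.

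Among the endocytic genes, *Cubn*, which encodes the cubilin receptor for vitamin B12 bound to intrinsic factor and for apolipoprotein A-I, had the largest fitted difference of all members. *Cubn* (NM_001081084) stood at 0.83, 0.02, 0.03 and 1.03 in control ESCs and at -2.27, -2.39, -3.04 and -3.21 in *L3mbtl2*-KD ESCs. No sample of one group came within the range of the other, and the probe was well above background on all 8 arrays. *Cubn* was down-regulated 9.22-fold (log2 fold change -3.20 with a standard error of 0.30, adjusted p = 5.4e-04 in limma), leaving 10.8% of the control intensity. The difference was -2.75 on slide 1, -3.66 on slide 2 and -2.73 with normexp background correction. Of the 13652 genes tested, 16 had a lower fitted log2 fold change. A second *Cubn* probe stood at -3.61, -4.43, -4.63 and -3.50 in control ESCs and in *L3mbtl2*-KD ESCs was not well above background on any array, which gives at least 2.70-fold lower by the bound (limma adjusted p = 2.3e-04), or a log2 fold change of -0.70 with normexp background correction. Both probes were higher in control replicates 1 and 4 than in 2 and 3.

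*Dab2* encodes the adaptor that binds the tails of megalin and related receptors and brings them into clathrin-coated pits, and is also present in fibroblasts. *Dab2* (NM_023118) stood at -2.27, -3.10, -3.26 and -2.24 in control ESCs and at -4.41, -5.47, -5.58 and -5.53 in *L3mbtl2*-KD ESCs. Among the latter, replicate 1 was highest and the only sample well above background. In the fit *Dab2* was down-regulated 5.78-fold, a size that rests on 3 dim arrays (log2 fold change -2.53 with a standard error of 0.33, adjusted p = 0.0021 in limma), by values of -2.26 and -2.81 within the slides. Normexp background correction gave -0.96 (limma adjusted p = 0.0046), just under 2-fold. The GATA motif occurred in 11.2% of all promoters and in 2 of the 9 of the members, a further *Foxa2* promoter (183 bases before the start) and a *Dab2* promoter (chr15:6299539-6299838, plus strand), shown because it carries the motif of the GATA factors measured above. Capitals mark the match, read on the other strand, 15 bases after the start.
Dab2 promoter: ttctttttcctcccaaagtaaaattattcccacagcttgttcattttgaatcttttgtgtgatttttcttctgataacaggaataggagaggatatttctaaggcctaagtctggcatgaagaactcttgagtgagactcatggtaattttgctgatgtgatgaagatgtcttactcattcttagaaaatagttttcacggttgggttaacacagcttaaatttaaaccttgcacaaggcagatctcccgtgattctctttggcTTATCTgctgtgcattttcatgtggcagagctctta

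*Amn* encodes amnionless, the membrane partner of cubilin. *Amn* (NM_033603) stood at -1.31, -1.76, -1.61 and -0.70 in control ESCs and at -2.93, -2.64, -2.37 and -1.84 in *L3mbtl2*-KD ESCs. The groups did not overlap, but the highest *L3mbtl2*-KD sample lay close to the lowest control sample. The log2 fold change was -1.10 (standard error 0.28, limma adjusted p = 0.030), or 2.15-fold, with -1.25 and -0.95 within the slides. This call was lost under 8 of 16 alternatives. These were normexp background correction (-0.85), no filter on dim probes (limma adjusted p = 0.071), and leaving out control replicate 1, 3 or 4 (limma adjusted p of 0.056, 0.054 and 0.059) or *L3mbtl2*-KD replicate 1, 2 or 3 (0.068, 0.065 and 0.064). The methods' one-way test, counted apart from the 16, did not call *Amn* either. The E-box bound by MAX occurred in 7.15% of all promoters and in 1 of the 9, that of *Amn* (chr12:111270846-111271145, plus strand), 26 bases before the start and in capitals here.
Amn promoter: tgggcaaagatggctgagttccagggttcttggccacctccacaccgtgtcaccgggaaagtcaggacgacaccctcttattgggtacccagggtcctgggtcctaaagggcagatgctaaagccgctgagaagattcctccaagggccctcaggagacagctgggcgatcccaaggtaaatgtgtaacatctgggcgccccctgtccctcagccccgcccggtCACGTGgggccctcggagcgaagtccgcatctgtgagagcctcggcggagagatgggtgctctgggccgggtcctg

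*Lrp2* encodes megalin, the receptor that works together with cubilin. *Lrp2* (NM_001081088) stood at 0.81, 0.49, 0.45 and 1.06 in control ESCs and at 0.59, 0.03, 0.14 and 0.17 in *L3mbtl2*-KD ESCs. *L3mbtl2*-KD replicate 1 lay within the control range. The log2 fold change of -0.47 (standard error 0.17, 95% interval -0.86 to -0.08) had an adjusted p of 0.094 in limma (two-sided exact permutation test p = 0.0857). With the replicate block the adjusted p in limma was 0.035, at the same size under 2-fold. None of the 3 motifs was found in the promoters of *Lrp2*, *Cubn* and *Pdgfra*. The promoters of *Cubn* (chr2:13491827-13492126, minus strand) and *Lrp2* (chr2:69585980-69586279, minus strand) are shown as those of the partner receptors that differed most in their change. Capitals mark CpG dinucleotides, a feature chosen after the values were seen. *Cubn* has 5 and *Lrp2* has 20, against a median of 7 over all promoters, and their GC contents are 44.3% and 65.0% (median 52.7%). The promoters of the other members, all called lower, went both ways. Those of *Foxa2* have 12, 23 and 13, that of *Amn* 15, those of *Dab2* 2 and 19 and that of *Pdgfra* 5.
Cubn promoter: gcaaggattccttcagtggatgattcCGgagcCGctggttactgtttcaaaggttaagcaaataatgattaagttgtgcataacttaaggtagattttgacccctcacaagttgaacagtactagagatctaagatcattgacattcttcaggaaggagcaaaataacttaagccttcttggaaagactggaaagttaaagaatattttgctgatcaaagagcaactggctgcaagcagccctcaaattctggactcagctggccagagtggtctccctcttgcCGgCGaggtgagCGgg
Lrp2 promoter: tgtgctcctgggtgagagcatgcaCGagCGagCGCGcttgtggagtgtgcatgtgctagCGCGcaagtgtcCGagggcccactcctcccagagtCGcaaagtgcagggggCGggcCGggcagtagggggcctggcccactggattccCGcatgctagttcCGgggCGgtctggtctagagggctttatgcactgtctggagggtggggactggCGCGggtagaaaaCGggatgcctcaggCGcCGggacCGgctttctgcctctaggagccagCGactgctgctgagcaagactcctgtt

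Of the 10 members, 6 were called lower in *L3mbtl2*-KD ESCs, against 3.21% of all genes tested, and 0 were called higher, against 2.49% (0 higher also at an unadjusted p under 0.05 in limma and in the methods' one-way test). The 6 were *Sox17*, *Foxa2*, *Pdgfra*, *Dab2*, *Cubn* and *Amn*. In 7 of 10, the 6 and *Gata4*, every *L3mbtl2*-KD sample lay below every control sample, against 13.8% of all genes. All 10 were tested, but *Sox17*, *Foxa2* and *Dab2* passed the filter on dim probes only through the control arrays, and a gene that passes in that way has to differ. Members were also chosen with earlier results of these data known. The counts are thus a description. The median log2 fold change was -1.21 over the transcription factors and *Pdgfra* (3 of 6 called) and -1.82 over the endocytic genes (3 of 4 called), against -0.01 over all genes tested. With *Foxa2* at its bound the first median was -1.10. The medians were -0.56 and -0.91 with normexp background correction, and -0.74 and -1.10 with only probes above background on all arrays. On slides 1 and 2 the medians were -0.99 and -1.43 for the regulators and -1.76 and -1.88 for the endocytic genes. Over all genes, 340 were called higher and 438 lower, so that 43.7% of calls were higher, against 54.5% with normexp background correction and 52.3% with quantile normalization. With normexp background correction *Sox17* and *Cubn* were the 2 members called.

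**Figure D2:**
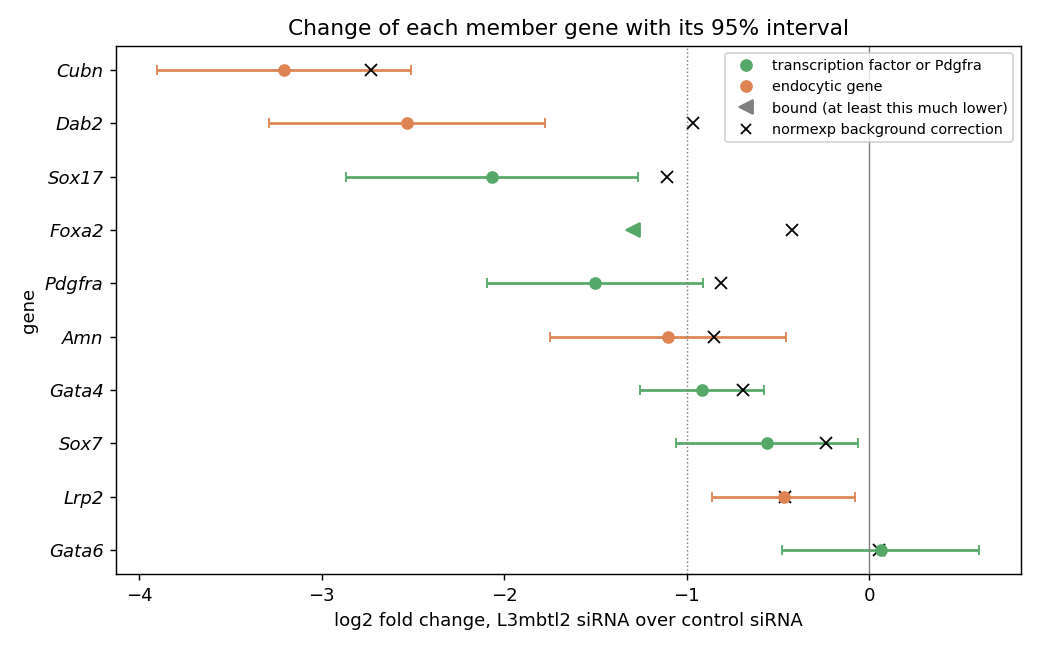
Log2 fold change of each member, *L3mbtl2*-KD over control ESCs, with its 95% interval from limma (points and bars), its bound where not well above background on any *L3mbtl2*-KD array (triangle), and the value with normexp background correction (crosses); the dotted line marks 2-fold lower. *Cubn* was at -3.20 and -2.73 with normexp, while *Foxa2* was at least 2.45-fold lower by the bound and at -0.42 with normexp.

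The changes of partner genes were set side by side within arrays, as the difference of the levels of both genes in each sample. This is a description of 4 pairs chosen with the values known, and carries no test. The change of *Gata4* was lower than that of *Gata6* by a log2 difference of -0.98, and that of *Sox17* differed from that of *Sox7* by -1.51. *Cubn* changed by -2.10 relative to *Amn* and by -2.74 relative to *Lrp2*. For each pair the groups did not overlap. Over 11 alternatives the differences ranged from -1.07 to -0.74, -1.69 to -0.87, -2.42 to -1.74 and -2.92 to -2.27, in the same order. They do not show that *Gata6*, *Sox7* or *Lrp2* stayed the same, and *Sox17* was dim in *L3mbtl2*-KD replicate 4.

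The endocytic genes also varied together among the control samples. Control replicates 1 and 4 both stood above replicates 2 and 3 for 4 of 4 endocytic genes, for 2 of the other 6 members (*Foxa2* and *Pdgfra*), and for 2336 of 13623 genes with a value on each control array (17.1%). This pattern was picked after the values were seen. The summed intensity of the 4 endocytic genes, in multiples of the 75th percentile, was 4.14, 2.83, 2.82 and 4.96 in control ESCs and 1.89, 1.40, 1.44 and 1.54 in *L3mbtl2*-KD ESCs. *Lrp2*, which was not called, made up 42.2 to 49.6% and 73.2 to 79.6% of these sums, which without it were 1.43 to 2.87 and 0.33 to 0.41.

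The machinery that the receptors share with other cargo was examined in a list of 23 endocytic partners, such as the clathrin chains, the AP2 subunits, other LDL receptor family members and lysosomal proteases. Of 22 tested, 0 were called in either direction in limma, and the median log2 fold change was 0.05. Over all genes tested 3.21% were called lower and 2.49% higher, at which a list of this size gives few calls or none. At an unadjusted p under 0.05 over 2-fold the count called was again 0, as in the methods' one-way test. At an adjusted p under 0.05 in limma without the fold threshold, 7 were lower and 0 higher, against 1472 lower and 1277 higher among all 13652 genes tested. The 7 were *Cltb* (-0.83), *Lgmn* (-0.73), *Lrp1* (-0.73), *Lrp8* (-0.70), *Vldlr* (-0.62), *Clcn5* (-0.49) and *Lrpap1*, of which the first 6 are named after their values were seen. *Lrpap1*, the chaperone of megalin, was at -0.37 (limma adjusted p = 0.040), under 2-fold, and its second probe was at -0.34 (limma adjusted p = 0.31). The summed level of the list was 111 to 119 in control ESCs and 108 to 121 in *L3mbtl2*-KD ESCs.

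Relatives and ligands of the member regulators formed a list of 13, of which 12 were tested, 2 were called lower and 0 higher. The median was -0.25, from -0.32 to -0.15 on leaving out single samples, or -0.05 with normexp background correction. *Pdgfc*, a ligand of PDGFRA, stood at -2.14, -2.50, -2.63 and -2.11 in control ESCs and at -3.69, -4.01, -4.47 and -4.53 in *L3mbtl2*-KD ESCs, with no overlap. Its log2 fold change was -1.83 (standard error 0.21, limma adjusted p = 0.0012), or -1.09 with normexp background correction, still called. *Pdgfrb*, the related receptor typical of mesenchymal cells, was down-regulated by a log2 fold change of -1.57 (standard error 0.19, limma adjusted p = 0.0013), or -0.85 with normexp background correction, which ends that call. *Pdgfa*, the main ligand of PDGFRA in the early embryo, was at -0.49 (standard error 0.12, limma adjusted p = 0.027), under 2-fold, and a second probe was at -0.50.

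The signals that induce primitive endoderm were covered by 16 genes, mainly of the FGF pathway and its targets, with *Nanog* among them. Of 15 tested, 0 were called in either direction in limma (median -0.20, from -0.27 to -0.15 on leaving out single samples), and 0 in the methods' one-way test. This too is a list at which the shares over all genes (3.21% lower and 2.49% higher) give few calls or none. At an unadjusted p under 0.05 over 2-fold, limma had 1 lower and the one-way test 0. Of the 15, 14 had a log2 fold change below 0, against 7045 of all 13652 genes tested. At an adjusted p under 0.05 in limma without the fold threshold, 1 of the list was lower and 1 higher. The summed level of the list was 110 to 119 in control ESCs and 98.4 to 102 in *L3mbtl2*-KD ESCs, with no overlap. *Fgf4*, the epiblast ligand, was at -0.55 (limma adjusted p = 0.068), and at an adjusted p of 0.015 in limma with the replicate block. *Fgfr2*, a receptor on primitive endoderm, was at -0.15 (limma adjusted p = 0.31). *Nanog*, the pluripotency factor that opposes GATA6, had a log2 fold change of -1.32 with a wide spread (standard error 0.49, limma adjusted p = 0.096) and overlapping groups. Its probe had a low signal, with mean levels of -2.47 in control and -3.78 in *L3mbtl2*-KD ESCs. Normexp background correction gave -0.70 (limma adjusted p = 0.094).

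Markers of more mature extraembryonic endoderm were lower in part. Of 34 listed, 26 were tested, 7 were called lower and 1 higher (median -0.60, or -0.36 with normexp background correction and -0.40 with only probes above background on all arrays). Of the 7, *Aqp8*, *S100g* and *Thbd* passed the filter on dim probes only through the controls, so the count is a description. *Fst*, the activin antagonist follistatin, stood at -1.22, -1.02, -0.51 and -0.33 in control ESCs and at -3.67, -3.54, -4.14 and -5.08 in *L3mbtl2*-KD ESCs. It fell by 3.34 on the log2 scale (standard error 0.35, limma adjusted p = 8.1e-04) with no overlap. The log2 fold change of *Fst* was -2.48 on slide 1, -4.20 on slide 2 and -2.34 with normexp background correction. *Srgn*, a proteoglycan core protein, fell by 2.45 on the log2 scale (limma adjusted p = 8.6e-04) and the water channel gene *Aqp8* fell by 3.33 (limma adjusted p = 3.2e-04; -1.85 with normexp background correction), with 2 *L3mbtl2*-KD arrays above background for the latter. *S100g*, which encodes a calcium-binding protein, was in its brighter probe not well above background in *L3mbtl2*-KD ESCs and at least 4.41-fold lower by the bound (limma adjusted p = 4.9e-04). With normexp background correction it was at -0.97, which ends the call, and its second probe was at -3.90 in *L3mbtl2*-KD replicate 3, within the control range, with an adjusted p of 0.059 in limma. The other genes called lower were *Thbd* (-1.64), *Krt19* (-1.63) and *Plat* (-1.05), with adjusted p of 0.028, 0.031 and 0.048 in limma. *Thbd* was well above background on 1 *L3mbtl2*-KD array only. With normexp background correction *Thbd* was at -0.35 and *Plat* at -0.50 (limma adjusted p of 0.016 and 0.12), and with quantile normalization their adjusted p in limma were 0.067 and 0.060. Leaving out each of the 8 samples in turn took away the call of *Thbd* 4 times, of *Krt19* 5 times and of *Plat* 7 times, and all 3 were lost without the filter on dim probes and in the one-way test. Only 4 of the list were called lower without control replicate 4, and likewise 4 with normexp background correction, without the filter on dim probes, with probes above background on all arrays or by the methods' one-way test. *Srgn* and *Fst* were among them each time. With the replicate block, with an intensity trend or without *L3mbtl2*-KD replicate 2, 8 of the list were called lower.

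*Apoa2* was called higher through its dimmer probe (1.33, limma adjusted p = 0.039), whereas the probe with the higher signal was at -0.02. The dimmer probe was well above background on 1 control array and passed the filter only through the *L3mbtl2*-KD arrays, where it is high. *Sparc*, a basement membrane protein of parietal endoderm and of fibroblasts, was the brightest of the list and was at -0.40 (limma adjusted p = 0.049), under 2-fold. The summed level of the list was 134 to 151 in control ESCs and 113 to 132 in *L3mbtl2*-KD ESCs, or 52.5 to 61.7 and 45.3 to 56.0 without *Sparc*. *Hnf4a*, a visceral endoderm regulator, was at -0.54 (standard error 0.44, limma adjusted p = 0.44). The genes for alpha-fetoprotein (*Afp*), transthyretin (*Ttr*) and apolipoproteins (*Apoa1*, *Apoa4*, *Apob*), typical of differentiated visceral endoderm, were not well above background on any array, nor were *Cer1* and *Fxyd3*. Those 7 were singled out for their signal after it was seen.

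**Figure D3:**
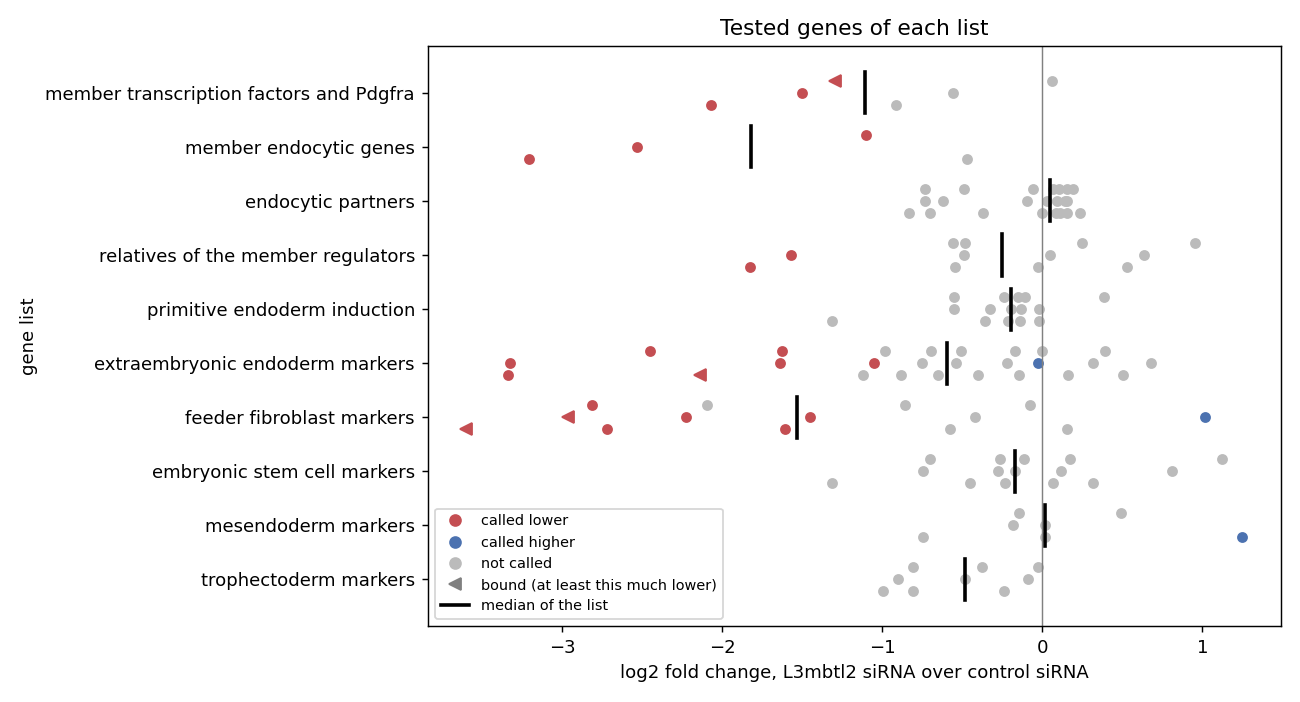
Log2 fold change of each tested gene, *L3mbtl2*-KD over control ESCs, by list, coloured by call, with bounds as triangles and the median of each list as a black bar. The medians were -1.10 (*Foxa2* at its bound) and -1.82 for the member groups, 0.05 for endocytic partners, -0.60 for extraembryonic endoderm markers and -1.53 for feeder fibroblast markers. With normexp background correction these were -0.56, -0.91, 0.03, -0.36 and -0.75.

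Markers of the STO feeder layer were lower in part. Of 19 listed, 14 were tested, 7 were called lower and 1 higher, and the median log2 fold change of -1.53 was -1.26 on slide 1 and -1.79 on slide 2, -0.75 with normexp background correction and -0.86 with only probes above background on all arrays. *Dcn* and *Col3a1* passed the filter on dim probes only through the controls, and with only probes above background on all arrays 5 were called lower. With the replicate block 8 were called lower. *Dcn* and *Col3a1*, which encode matrix proteins, were lower by at least 12.1-fold and 7.81-fold by the bound, or by log2 fold changes of -1.90 and -1.56 with normexp background correction. *Col1a2*, *Acta2*, *Col1a1*, *Col6a1* and *Twist2* were the others called lower (-2.81, -2.72, -2.22, -1.61 and -1.45). *Loxl1*, a matrix crosslinking enzyme, was higher by 1.01. The groups overlapped for *Col6a1*, and normexp background correction took *Col6a1* (-0.79), *Twist2* (-0.56) and *Loxl1* (0.89) under 2-fold. The call of *Col6a1* was also lost with quantile normalization (limma adjusted p = 0.066), without the filter on dim probes, in the one-way test and on leaving out 6 of the 8 samples in turn. *Lum*, *Postn*, *Prrx1* and *Fap*, named after their signal was seen, were not well above background on any array, and *Tagln*, the brightest of the list, was at -0.58 (limma adjusted p = 0.17). The part of the feeder cells in the lower levels of the members was not tested, and how many of these markers ESCs make was not measured. Nor was the part of the sort for the Vasa reporter tested, which the methods give for the *L3mbtl2*-KD cells.

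Feeder markers also differed among the control samples. The summed feeder marker intensity was 6.69 in control replicate 1, against 13.7, 12.0 and 15.4 in control replicates 2 to 4 and 5.95, 5.79, 6.38 and 6.47 in *L3mbtl2*-KD ESCs. *Tagln*, which was not called, made up 49.5 to 60.1% of the sum in control ESCs and 64.8 to 70.2% in *L3mbtl2*-KD ESCs. Without it the sum was 3.38 in control replicate 1, 4.80 to 7.19 in the other controls and 1.90 to 2.03 in *L3mbtl2*-KD ESCs, so that control replicate 1 lay between the other controls and the *L3mbtl2*-KD samples. *Col1a1* (-1.87), *Dcn* (-2.39) and *Col3a1* (-3.89) were lowest among controls in this replicate, yet above the highest *L3mbtl2*-KD sample (-2.35, -5.31 and -5.82). *Tagln* (1.73) was instead below every *L3mbtl2*-KD sample (1.91 to 2.18), and *Col6a1* (-3.56) was below *L3mbtl2*-KD replicate 2 (-3.43). In the same replicate *Cubn* was at 0.83, *Dab2* at -2.27, *Sox17* at -2.49 and *Pdgfra* at -2.31, within or above the range of the other controls and above every *L3mbtl2*-KD sample. *Foxa2*, *Amn* and *Gata4* were also above every *L3mbtl2*-KD sample there. These values come from 1 control sample, and the part of feeder cells in the levels of the members was not tested.

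**Figure D4:**
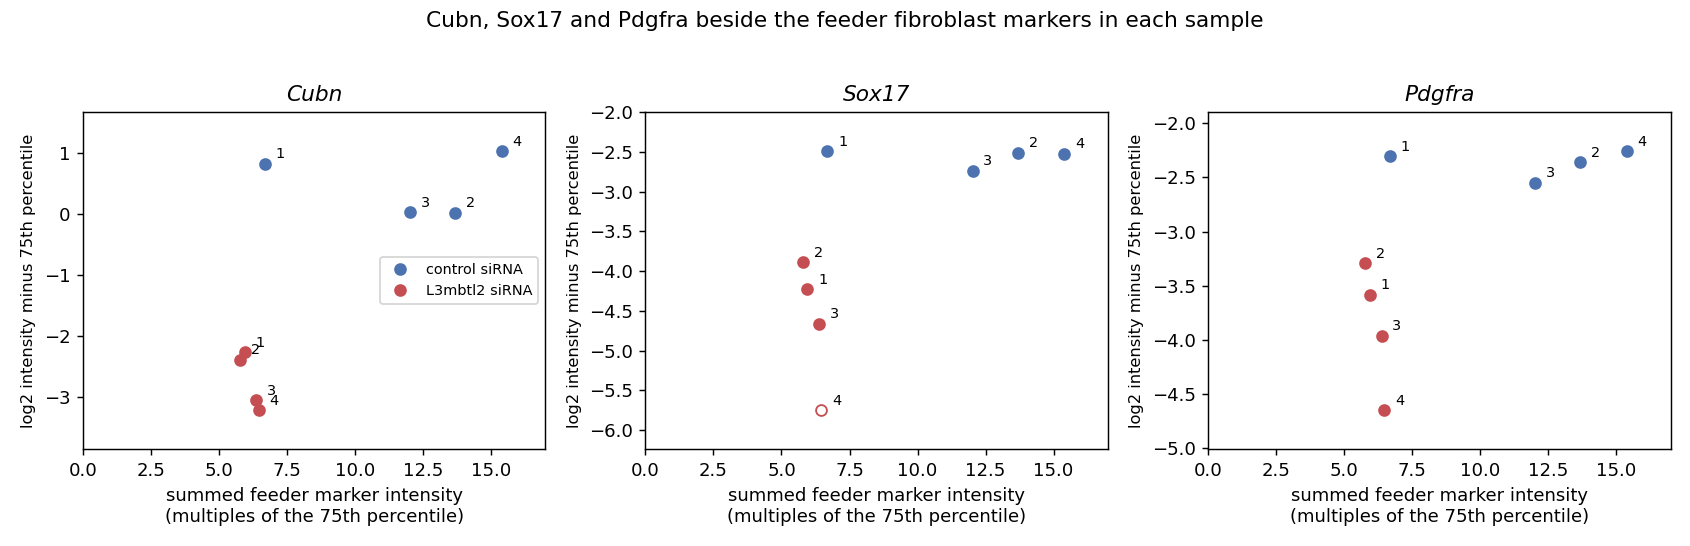
Level of *Cubn*, *Sox17* and *Pdgfra* (log2 intensity minus the 75th percentile) against the summed intensity of the feeder markers in multiples of the 75th percentile, one point per sample, open where not well above background. Control replicate 1 had a feeder sum of 6.69, with *Cubn* at 0.83, and *L3mbtl2*-KD ESCs had 5.79 to 6.47. Much of each sum is *Tagln*, and without it these were 3.38 and 1.90 to 2.03. The part of feeder cells in the levels of the 3 genes was not tested.

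Lists of other cell states were read beside the 3.21% called lower and 2.49% called higher over all genes tested, at which lists of this size give few calls or none. Of 15 ESC markers, 0 were called in limma (median -0.17, from -0.19 to -0.10 on leaving out single samples). At an unadjusted p under 0.05 over 2-fold, limma had 1 lower and 1 higher, and the methods' one-way test 0 and 1. The brightest, *Dppa5a*, was at 0.17 (limma adjusted p = 0.30), and at an adjusted p of 0.032 in limma with the replicate block, under 2-fold. The summed ESC marker level was 328 to 379 in control ESCs and 345 to 410 in *L3mbtl2*-KD ESCs. Of 10 mesendoderm markers, 7 were tested, 0 were called lower and 1 higher (median 0.02, or 0.19 with quantile normalization). The called gene was *Fgf8*, a growth factor of the primitive streak, at 1.25 and, by a second probe, 1.30 (limma adjusted p of 0.0015 and 0.0011), or 0.91 with normexp background correction. Of 10 trophectoderm markers, 9 were tested and 0 called in limma (median -0.48, from -0.56 to -0.28 on leaving out single samples, with all 9 below 0), also 0 over 2-fold at an unadjusted p under 0.05 in limma or in the one-way test. The median was -0.26 with normexp background correction and -0.24 with only probes above background on all arrays. Over all genes tested, 7045 of 13652 had a log2 fold change below 0.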

How the data were processed

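The authors deposited, per array, spot intensity values from Feature Extraction 10.7.3.1, background-subtracted but not normalized between arrays. The authors also deposited a table of log2 values, made per the methods with a 75 percentile shift in GeneSpring 12.6. It matched log2 intensities shifted in this way and centred on each probe's median over the arrays (r at least 0.999 per array over 39429 probes). Its columns had medians from -0.06 to 0.08, and 0 columns lacked a sample.

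From these, log2 intensities were shifted by the array's 75th percentile. Control and outlier-flagged spots were dropped and the spots of a probe averaged. A probe counted as well above background on an array when at least 0.5 of its spots were. Names came from the RefSeq accession of each probe through the GRCm38.p6 table, for 26055 probes and 19751 genes. Probes well above background on all arrays of at least 1 group were tested with lmFit and eBayes in limma 3.58.1 (R 4.3.3), with Benjamini-Hochberg adjustment over 23518 probes, of which 78 lacked a value on some array. The tested probe with the highest mean signal stands for a gene. The steps were checked on simulated data.

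The replicate numbers pair the samples, as inferred from the values. Deviations from group means correlated at 0.38 to 0.58 between same-numbered samples and at -0.44 to 0.25 between others.

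Named genes are the members, *L3mbtl2*, *Ddx4*, the called genes of each list (8 at most), the brightest uncalled feeder and ESC marker, and *Lrpap1*, *Pdgfa*, *Pdgfrb*, *Fgf4*, *Fgfr2*, *Nanog*, *Hnf4a* and *Sparc*. 11 list genes not well above background on any array and 6 endocytic partners were named after their values were seen. 2 further genes of the planned lists are not reported here. Members and lists were chosen with earlier results of these data known. Alternatives were normexp background correction (offset 50, on median in place of mean spot intensities), quantile normalization, the deposited table, other filters on dim probes, a slide block, a replicate block, an intensity trend, a 1.5-fold threshold, the methods' one-way test, 1 probe per gene and leaving out each sample. Those for list medians, list counts and pairs of genes were added after seeing the data.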

Additional observations from a re-analysis of the deposited data

Results flagged for a closer look

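In 5 of 80 groups of 4 samples, 1 sample stood apart from the others by Dixon's ratio (its gap to the nearest sample over the range of the group), where chance gives about 4. Among the members these were *Sox17* in control replicate 3 (ratio 0.865, level -2.74, the others averaging -2.51) and *Dab2* in *L3mbtl2*-KD replicate 1 (0.903, -4.41 against -5.53). The others were *Lrpap1* in control replicate 3 (0.863, 1.70 against 1.88), *Nanog* in control replicate 2 (0.894, -1.38 against -2.83) and *Tagln* in control replicate 1 (0.860, 1.73 against 2.94).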

How the results depend on the processing

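*L3mbtl2* (-1.48 to -1.19) and *Ddx4* (2.71 to 2.87) kept their direction and an adjusted p under 0.05 in limma under all 16 alternatives, as did *Cubn* (-3.36 to -2.73) and *Pdgfra* (-1.70 to -0.81, under 2-fold with normexp). No called value of these genes or a member changed its sign. With normexp background correction 2 members were called lower, 193 genes were called higher (192 shared with the 340) and 161 lower (157 shared with the 438), and the medians were -0.56 for the transcription factors and *Pdgfra* and -0.91 for the endocytic genes; the cause was not tested. With only probes above background on all arrays, which leaves fewer genes, 3 members (*Pdgfra*, *Cubn* and *Amn*) and 290 genes were called lower, and the medians were -0.74 and -1.10. A threshold of 1.5-fold, which must give more calls, gave 700 genes higher and 1014 lower, and 7 members with *Gata4*. The methods' one-way test called 5 members, without *Amn*.

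Leaving out single samples, 5 to 6 members were called lower, 298 to 371 genes were called higher and 357 to 500 lower, *L3mbtl2* stayed between -1.48 and -1.27 and *Ddx4* between 2.79 and 2.87. The medians were -1.37 to -1.05 for the regulators and -1.95 to -1.63 for the endocytic genes.

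With the replicate block 6 members were called lower, 358 genes were called higher (339 shared) and 469 lower (434 shared), and no call of a member changed. With the slide as a block these were 6, 345 and 448.

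Low signal limits what these arrays show: *Foxa2*, *Dab2*, *Sox17* and the second *Cubn* probe lay near or under background in *L3mbtl2*-KD ESCs, and their differences were smaller with normexp background correction, which also used median spot intensities. Some spots of the *Pdgfra* probe were also dim in *L3mbtl2*-KD replicate 4. *Cubn* (brighter probe) was well above background in every sample.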
